A study of Mus musculus with 4 samples.

Results

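The genes described here encode voltage-gated sodium channel subunits: Scn1a, Scn2a1, Scn3a and Scn8a for pore-forming alpha subunits, and Scn2b, Scn3b and Scn4b for auxiliary beta subunits. They are 7 of the 14 sodium channel subunit symbols in the tables and 7 of the 21719 genes kept. The members were taken by symbol, and the set was chosen by their FPKM levels in these same 4 libraries, so every level and difference below is a description and none is tested. All 7 had 1 row in each table.

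Cultured hippocampal neurons from newborn CD1 mice were profiled by RNA sequencing of polyA RNA, with 1 library for each of 4 conditions. Each culture was infected on day 4 in vitro with a lentivirus, either the empty pLKO.1 vector (vector) or a virus expressing 1 short hairpin RNA (shRNA) aimed at Kdm6b, a histone H3 lysine 27 demethylase. On day 11 the cultures were harvested untreated or after 3 h with bicuculline (labelled 50µm) and 2.5 mM 4-aminopyridine (Bic/4AP). The combination, a GABA-A receptor antagonist with a potassium channel blocker, is used to drive synaptic firing. All 4 cultures carried a lentivirus, and the comparison culture for the hairpin was the empty vector, with no second hairpin. There was no replicate library, so no difference here has an error between cultures, and no p-value is given. The bounds printed with each level are those the authors deposited, and they cover the estimate within 1 library only.

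Voltage-gated sodium channels open on depolarisation and carry the inward current that starts the action potential. The alpha subunit forms the pore and the voltage sensors, and beta subunits change its gating and surface level and act as cell adhesion molecules. In forebrain neurons Scn2a1 (Nav1.2) and Scn8a (Nav1.6) are the main alpha subunit genes of excitatory cells, Scn1a (Nav1.1) is prominent in inhibitory interneurons, and Scn3a (Nav1.3) is most abundant in the embryonic and newborn brain. Beta-2 and beta-4 are joined to the alpha subunit by a disulfide bond, while beta-3 associates without one.

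In mouse build mm9, the build the submitters name, 3 of the 4 alpha subunit genes lie in 1 cluster on chromosome 2. Scn3a is at chr2:65295175-65405549, Scn2a1 at chr2:65508502-65605504 and Scn1a at chr2:66108839-66278894, a stretch of 984 kb from the first start to the last end. Scn8a is at chr15:100701114-100876360. All 3 beta subunit members are on chromosome 9, with Scn3b at chr9:40076801-40099203, Scn2b at chr9:44925959-44938153 and Scn4b at chr9:44947125-44962144. Scn2b and Scn4b are 8971 bp apart. These are whole gene loci, and the values sum all transcripts of a gene.

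Scn2b and Scn4b are neighbours whose levels differed in opposite directions with the hairpin, Scn4b being under 1 FPKM in every library. Their promoters from RefSeq (GRCm38.p6, both on the plus strand, 250 bases before to 50 after the annotated start) are given with each CG dinucleotide in capitals. Scn2b, chr9:45117626-45117925, and Scn4b, chr9:45138374-45138673, read as follows.
Scn2b: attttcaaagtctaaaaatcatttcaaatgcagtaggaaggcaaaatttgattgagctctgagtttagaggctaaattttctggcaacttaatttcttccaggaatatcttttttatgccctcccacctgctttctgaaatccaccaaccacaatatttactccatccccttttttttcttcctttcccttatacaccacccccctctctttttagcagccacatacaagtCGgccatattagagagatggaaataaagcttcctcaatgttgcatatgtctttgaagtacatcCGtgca
Scn4b: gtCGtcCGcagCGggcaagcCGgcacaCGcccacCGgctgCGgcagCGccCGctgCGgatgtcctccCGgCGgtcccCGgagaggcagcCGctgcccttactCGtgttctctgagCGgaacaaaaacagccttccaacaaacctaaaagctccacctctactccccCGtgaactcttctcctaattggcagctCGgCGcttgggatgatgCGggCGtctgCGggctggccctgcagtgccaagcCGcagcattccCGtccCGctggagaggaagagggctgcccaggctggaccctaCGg
The Scn2b promoter held 2 CG dinucleotides and 38.3% G and C, and the Scn4b promoter held 26 and 66.3%. Of the 32851 promoters of the same length, whose median was 7, 85.9% held at least 2 CG and 16.9% held at least 26. Promoters of 5 of the 7 members were matched by symbol, and the 7 windows of these 5 genes held from 2 to 38 CG. The 2 Scn8a windows held 38 and 12, and Scn8a, like Scn2b, was lower with the hairpin untreated. No relation between CG content and the hairpin differences was tested.

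A second set of sequences surrounds a word of 7 bases, ACAAGTG, in 3′ UTRs. It had the lowest score of 15682 words found in at least 100 genes, for hairpin differences in untreated cultures of these same libraries. The score summed the differences of genes with the word, after a correction for UTR length, and divided by the square root of their number. Finding the word in any gene lower with the hairpin is therefore partly built in and is no independent evidence about that gene. It was present in 1314 of 10983 genes searched. In GENCODE mouse release M21 (GRCm38) 1 copy was found in each of Scn3b, Scn2a1 and Scn3a, and none in Scn1a, Scn8a, Scn2b or Scn4b, with only the sense strand searched. The sites, with the word in capitals, begin at base 1405, 1526 and 640 of the 3′ UTR, in the order listed.
Scn3b: gagagcagggaACAAGTGacaagattctt
Scn2a1: tgacagtgtaaACAAGTGgcaagctactt
Scn3a: ggtgttagcttACAAGTGttttagtctgt
Among members with the word, Scn3b and Scn2a1 were lower and Scn3a higher with the hairpin untreated. Among those without it, Scn1a, Scn8a and Scn2b were lower and Scn4b higher. Over the genes searched, 2.13% with the word and 0.476% without it were 2-fold lower with the hairpin untreated. With Bic/4AP these shares were 1.90% and 0.300%. These shares use differences not corrected for UTR length, and the choice of the word from these libraries builds in part of that gap. The part of the word in any difference was not tested.

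The expression unit is FPKM, a fragment density scaled for transcript length and library size, which allows genes to be set beside each other. In untreated vector cultures Scn3b was the highest member at 47.9 FPKM, in the 90.7th percentile of all genes kept. Scn2a1 followed at 36.3, Scn2b at 24.3, Scn8a at 17.4, Scn1a at 8.65 and Scn3a at 6.78, with the bounds of neighbours in this order apart from each other. Scn4b, at 0.380, was far below the rest, in the 34.6th percentile.

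**Figure D1:**
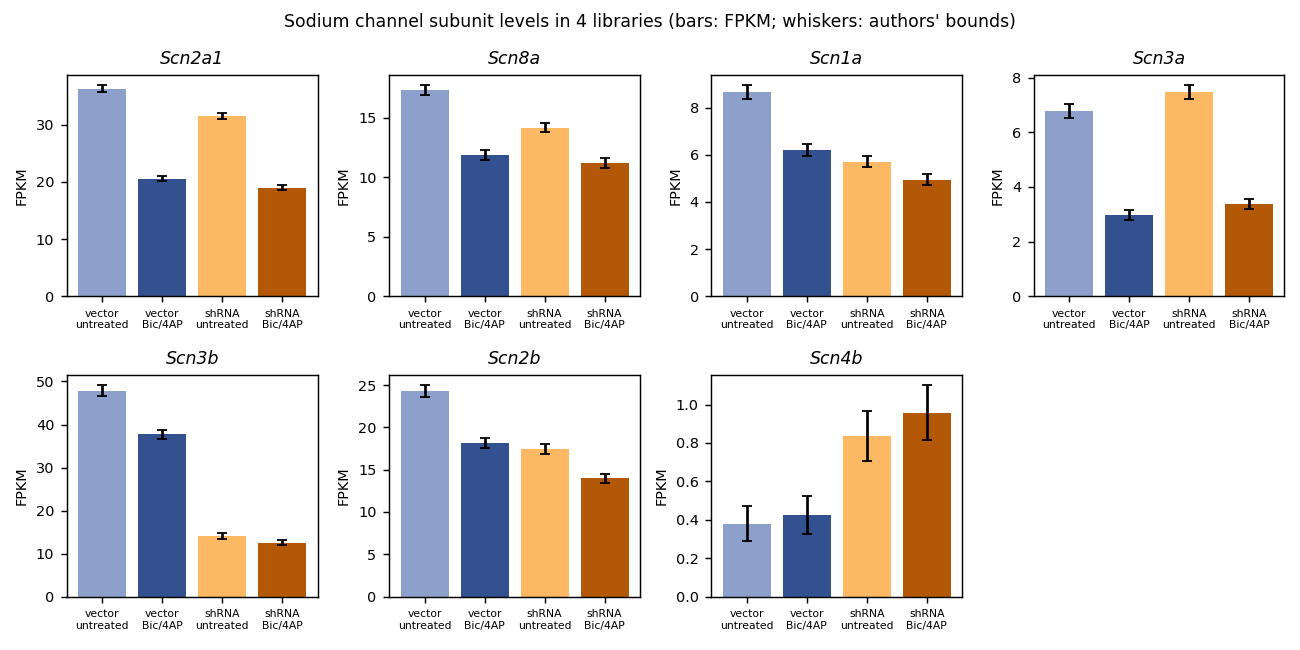
Level of each of the 7 subunit genes in FPKM (vertical axes, starting at 0 and scaled per gene) in the 4 libraries; bars are the level in 1 library and whiskers the authors' bounds. The Bic/4AP bars of the 4 alpha subunit genes are below the untreated bars of the same virus, Scn3b is low in both shRNA libraries, and Scn4b is high in both.

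Among alpha subunit genes, Scn2a1 was the most abundant in all 4 libraries. Its level was 36.3 FPKM (bounds 35.7 to 36.9) in vector untreated, 20.5 (20.1 to 21.0) in vector Bic/4AP, 31.6 (31.0 to 32.1) in shRNA untreated and 19.0 (18.5 to 19.4) in shRNA Bic/4AP cultures, and other genes are listed in that order. Scn8a, the subunit that gathers at mature axon initial segments and nodes, followed the same order with 17.4 (16.9 to 17.8), 11.9 (11.4 to 12.3), 14.2 (13.8 to 14.5) and 11.2 (10.8 to 11.6). In both genes the 2 Bic/4AP libraries were the lowest, and for Scn8a their bounds overlapped each other. Scn1a, whose loss of function causes Dravet syndrome in people, stood at 8.65 (8.35 to 8.95), 6.21 (5.95 to 6.47), 5.70 (5.46 to 5.94) and 4.93 (4.71 to 5.16). Here the vector untreated library was high, and vector Bic/4AP and shRNA untreated lay next to each other with bounds barely apart. Scn3a was the exception, at 6.78 (6.53 to 7.02), 2.98 (2.81 to 3.15), 7.47 (7.22 to 7.73) and 3.39 (3.21 to 3.56). Its pairs of libraries split by treatment, and within each treatment the shRNA library was the higher.

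Among beta subunit genes, Scn3b and Scn4b split by virus rather than by treatment. Scn3b had 47.9 FPKM (46.7 to 49.1) in vector untreated and 37.7 (36.7 to 38.8) in vector Bic/4AP cultures, against 14.0 (13.4 to 14.7) and 12.5 (11.9 to 13.1) with the hairpin. The 2 vector libraries were high and the 2 shRNA libraries low, with a wide gap between them. Scn2b had 24.3 (23.6 to 25.0), 18.1 (17.5 to 18.8), 17.5 (16.9 to 18.0) and 14.0 (13.4 to 14.5) over the libraries listed as before. Its vector untreated library was the highest, its shRNA Bic/4AP library the lowest, and the bounds of the other 2 overlapped. Scn4b had 0.380 (0.291 to 0.469), 0.424 (0.327 to 0.522), 0.837 (0.708 to 0.967) and 0.958 (0.816 to 1.10), so both shRNA libraries were above both vector libraries. It was under 1 FPKM in all 4 and therefore was not among the 6 members compared against other genes.

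Bic/4AP was compared with no treatment to show how 3 h of a treatment used to drive firing went with channel transcript levels. All 6 compared members were lower with Bic/4AP, in vector and in shRNA cultures, and the ordering of the alpha subunits was by size of difference Scn3a, Scn2a1, Scn8a, Scn1a in each. Values below are differences of log2(FPKM + 1), on which low genes appear to change less than they do, and 2-fold means a size of at least 1. Scn3a differed by -0.97 in vector and -0.95 in shRNA cultures, its Bic/4AP level being 43.9% and 45.3% of the untreated level. It stood 44th from the lowest of 13217 genes and 31st of 13320. Scn2a1 differed by -0.79 and -0.71, to 56.5% and 60.1%, and stood 126th and 149th from the lowest. These were the members with the lowest Bic/4AP differences.

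The remaining members had smaller differences. Scn8a differed by -0.51 in vector and -0.31 in shRNA cultures, Scn1a by -0.42 and -0.18. Among beta subunits Scn2b differed by -0.40 and -0.30 and Scn3b by -0.34 and -0.16. Scn4b differed by 0.05 and 0.09, with bounds overlapping. All 6 compared members had Bic/4AP bounds below the untreated bounds in both backgrounds, where 37.0% of all genes were so in vector and 37.6% in shRNA cultures, and none was bounds-apart higher, where 21.8% and 17.0% of genes were. No member was 2-fold lower, against 0.272% and 0.158% of genes, or 2-fold higher, against 2.22% and 2.08%. The members' median was -0.47 in vector cultures beside -0.07 over all genes, and -0.31 in shRNA cultures beside -0.08. Scn3a was just under the 2-fold line and passed it with a pseudocount of 0.1, at -1.16 and -1.12. With median-ratio scaling, the shRNA values of Scn1a and Scn3b became -0.10 and -0.08 with bounds overlapping, and the overlap held for Scn3b with upper-quartile scaling at -0.11.

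In bulk RNA, fewer cells of a type and less RNA per cell cannot be told apart, and neuron markers moved with these results. With Bic/4AP in vector cultures 7 of 8 pan-neuron and 7 of 10 excitatory markers were lower, with medians of -0.32 and -0.27 beside -0.07 over all genes. In shRNA cultures it was 6 of 8 and 6 of 10, with medians of -0.15 and -0.07 beside -0.08. Bounds were apart and lower in 7 and 7 markers in vector cultures, where 37.0% of all genes were. In shRNA cultures they were so in 6 and 5, where 37.6% of all genes were. Summed pan-neuron markers went from 2462 to 2336 FPKM in vector and from 1851 to 2019 in shRNA cultures, and excitatory markers from 683 to 513 and from 500.0 to 466. The pan-neuron sums include Nefl, which went up, against most of its list, from 258 to 530 FPKM in vector and from 233 to 586 in shRNA cultures. Inhibitory markers, split 6 and 6 in vector and higher in 9 of 12 in shRNA cultures, went from 1084 to 1095 and from 544 to 817. The inhibitory sums include Sst, the highest of its list, which went from 539 to 542 FPKM in vector and from 225 to 413 in shRNA cultures. The part of the neuron markers in the subunit differences was not tested.

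**Figure D2:**
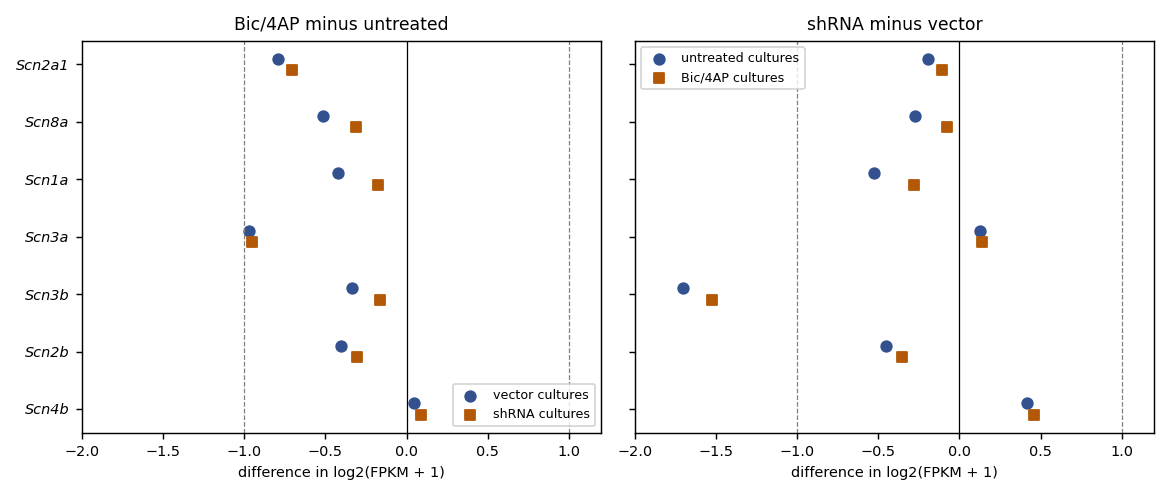
Difference in log2(FPKM + 1) for each subunit gene (horizontal axes), Bic/4AP minus untreated on the left and shRNA minus vector on the right; circles and squares are the 2 backgrounds or states, each from 1 library a group, and dashed lines mark 2-fold. On the left all genes but Scn4b lie below 0, and on the right only Scn3b is beyond a dashed line.

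The Bic/4AP difference was closer to 0 in shRNA than in vector cultures for all 6 compared members, except that Scn3a turned to a gap of -0.01 with a pseudocount of 5. The share of all genes with this pattern was not counted, so it cannot be called particular to the members. Pan-neuron medians were -0.32 in vector and -0.15 in shRNA cultures, and excitatory medians -0.27 and -0.07. Inhibitory medians were -0.01 and 0.36, and those over all genes -0.07 and -0.08. The gap between the responses was 0.25 for Scn1a, 0.20 for Scn8a, 0.18 for Scn3b, 0.10 for Scn2b, 0.09 for Scn2a1 and 0.02 for Scn3a. The gap was smallest for Scn3a, whose responses nearly coincided. Both responses have 1 library on each side, so the gap has no error and was not tested.

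The hairpin was compared with the vector to show what went with reduced Kdm6b. Kdm6b itself had 6.74 FPKM in vector untreated, 13.1 in vector Bic/4AP, 2.73 in shRNA untreated and 4.83 in shRNA Bic/4AP cultures. The shRNA level was 40.6% of vector without treatment and 36.8% with it, the direction the labels give, and Kdm6b was higher with Bic/4AP under both viruses. Of the 21 bases the labels give for the hairpin, the first 18 were found in the Kdm6b transcripts of GENCODE M21 and the whole was not. Only this hairpin was used, so differences that go with lower Kdm6b and those that go with the hairpin itself cannot be told apart.

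Scn3b was the member that stood apart. Its shRNA level was 29.3% of vector in untreated cultures (0.273 to 0.315 as the ratio from the bounds) and 33.0% with Bic/4AP (0.306 to 0.356). The differences were -1.70 and -1.52, which placed it 7th from the lowest of 13295 genes and 9th of 13240. It was the 1 member 2-fold lower in each state, where 0.669% and 0.536% of all genes were 2-fold lower, and no member was 2-fold higher, where 0.414% and 0.189% were. Under all alternatives run it lay between -1.76 and -1.47 untreated and between -1.59 and -1.29 with Bic/4AP.

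Scn1a and Scn2b were also lower with the hairpin in both states. Scn1a differed by -0.53 untreated and -0.28 with Bic/4AP, to 65.9% and 79.5% of vector. Scn2b differed by -0.45 and -0.36, to 71.9% and 77.0%. Scn8a differed by -0.27 untreated and by -0.07 with Bic/4AP, where its bounds overlapped, and Scn2a1 by -0.20 and -0.11. Scn3a went the other way at 0.12 and 0.14. Scn4b also did, at a low level, with shRNA levels 2.20 times (1.51 to 3.32 from the bounds) and 2.26 times (1.56 to 3.36) the vector levels.

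Of the 6 compared members, untreated bounds were apart and lower with the hairpin in 5 and higher in 1, where 22.2% and 33.1% of all genes were. With Bic/4AP they were lower in 4 and higher in 1, where 21.1% and 28.6% of genes were. The members' median was -0.36 untreated, beside 0.05 over all genes, and -0.19 with Bic/4AP, beside 0.03. With median-ratio scaling Scn3a became 0.07 untreated and 0.10 with Bic/4AP, and its bounds overlapped in both.

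The sums of neuron markers given above were also lower in shRNA than in vector cultures. The pan-neuron sums include Stmn2, which had 731 and 644 FPKM in vector and 288 and 277 in shRNA cultures. The inhibitory sums include Sst, at 539 and 542 FPKM in vector and 225 and 413 in shRNA cultures. Untreated, 7 of 8 pan-neuron, 9 of 10 excitatory and 11 of 12 inhibitory markers were lower with the hairpin. Their medians were -0.14, -0.19 and -0.45, beside 0.05 over all genes. Bounds were apart and lower in 7, 7 and 9 of them, where 22.2% of all genes were. With Bic/4AP 4 of 8, 4 of 10 and 9 of 12 were lower, with medians of 0.02, 0.11 and -0.21 beside 0.03. Bounds were then apart and lower in 3, 3 and 6, where 21.1% of all genes were. Their part in the hairpin differences, that of Scn1a with the inhibitory markers included, was not tested.

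**Figure D3:**
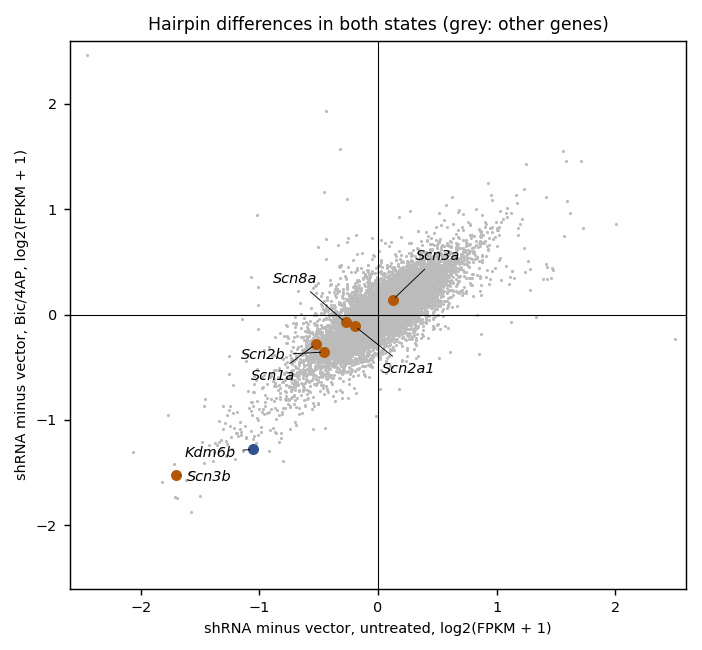
Difference between shRNA and vector in log2(FPKM + 1), untreated on the horizontal and with Bic/4AP on the vertical axis; each grey point is a gene, the 6 compared subunit genes are orange and Kdm6b is blue. Scn3b sits at -1.70 and -1.52 in the sparse lower left, and the other 5 subunit genes lie within the cloud.

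The make-up of the subunit pool moved with these differences. The alpha subunit genes summed to 69.1 FPKM in vector untreated, 41.6 in vector Bic/4AP, 58.9 in shRNA untreated and 38.5 in shRNA Bic/4AP cultures. Scn2a1 made 52.6%, 49.4%, 53.6% and 49.2% of that sum, Scn8a 25.1%, 28.5%, 24.1% and 29.2%, Scn1a 12.5%, 14.9%, 9.67% and 12.8%, and Scn3a 9.81%, 7.16%, 12.7% and 8.79%. The Bic/4AP libraries thus had a larger share of Scn8a and a smaller share of Scn3a than the untreated libraries of the same virus.

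The 3 beta subunit members together summed to 72.6 FPKM in vector untreated and 56.3 in vector Bic/4AP cultures, against 32.3 and 27.4 with the hairpin. Scn3b made 66.0% and 67.0% of that sum in vector cultures and 43.4% and 45.5% in shRNA cultures, while Scn2b went from 33.5% and 32.2% to 54.0% and 51.0%. Scn2b was thus the larger of these with the hairpin, although its own level was lower there. Scn4b made 0.524% and 0.754% of the sum in vector and 2.59% and 3.50% in shRNA cultures. The ratio of the summed beta to the summed alpha members was 1.05 untreated and 1.35 with Bic/4AP in vector cultures, and 0.549 and 0.711 in shRNA cultures, so it was higher with Bic/4AP and lower with the hairpin.

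**Figure D4:**
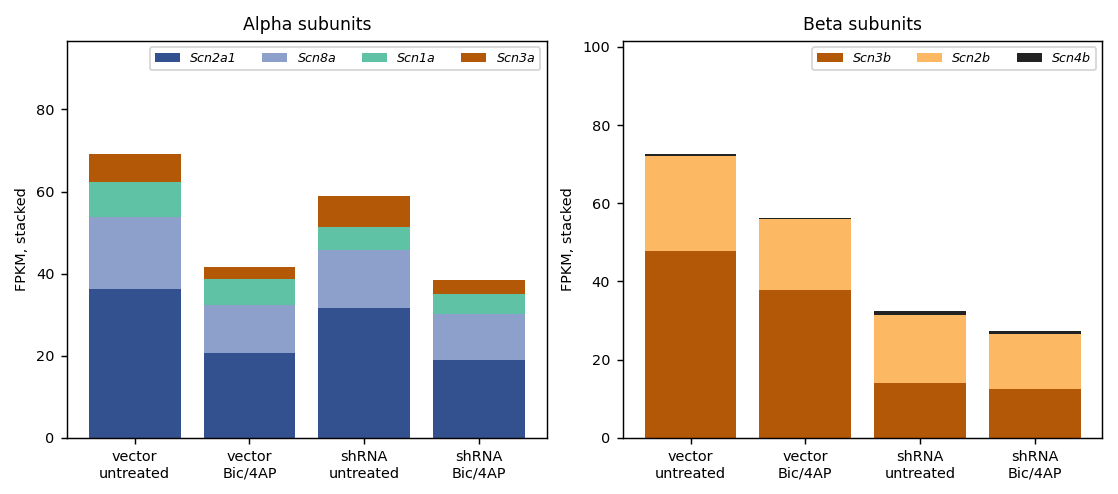
Stacked FPKM of the 4 alpha subunit members (left) and the 3 beta subunit members (right) in the 4 libraries; each bar is 1 library and each colour 1 gene. The alpha stack is lower with Bic/4AP, at 41.6 and 38.5 against 69.1 and 58.9, and the beta stack is lower with the hairpin, mostly in its Scn3b layer.

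A list of 5 other sodium channel subunit genes had no gene at 1 FPKM in any library. Their summed level was 0.579 to 0.816 FPKM, so none was compared. Heart and skeletal muscle markers were also low, with 1 of 5 reaching 1 FPKM and sums of 3.01 to 4.22 FPKM.

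The sodium leak channel list (Nalcn, Unc79, Unc80 and Fam155a) covers the channel that sets resting excitability. With Bic/4AP its bounds were apart and lower in 4 of 4 genes in vector and 3 of 4 in shRNA cultures, with medians of -0.34 and -0.22. Over all genes 37.0% and 37.6% were so, with medians of -0.07 and -0.08. With the hairpin the list's bounds were lower in 1 and higher in 1 untreated, and higher in 2 with Bic/4AP, with medians of 0.02 and 0.12. Of all genes 22.2% were lower and 33.1% higher untreated, and 28.6% were higher with Bic/4AP. Their medians were 0.05 and 0.03. Like the alpha subunits, the leak channel genes were lower with Bic/4AP, but they were not lower with the hairpin as a list.

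Fibroblast growth factor homologous factors, Fgf11 to Fgf14, bind the tail of alpha subunits inside the cell. All 4 had bounds apart and lower with the hairpin untreated, 2 of 4 with Bic/4AP, and the medians were -0.37 and -0.08. Over all genes 22.2% and 21.1% were so, with medians of 0.05 and 0.03. Fgf14, at 9.23, 8.43, 5.07 and 4.84 FPKM, had the hairpin differences -0.75 and -0.69. Its 2 shRNA libraries were both below its 2 vector libraries, as for Scn3b, but not 2-fold.

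Genes of the axon initial segment and of channel adhesion were compared for 8 of 10 list members. Nfasc was marked as failed, and Ank3, the initial segment scaffold, was listed at 0.155 to 0.233 FPKM. With Bic/4AP the bounds were apart and lower in 8 of 8 in vector and 6 of 8 in shRNA cultures, with medians of -0.36 and -0.16. Over all genes 37.0% and 37.6% were so, with medians of -0.07 and -0.08. With the hairpin the list's bounds were lower in 5 untreated, and lower in 3 and higher in 1 with Bic/4AP, with medians of -0.29 and 0.01. Of all genes 22.2% were lower untreated, and 21.1% were lower and 28.6% higher with Bic/4AP. Their medians were 0.05 and 0.03. Cntn1 (contactin), an adhesion molecule, was the 1 gene of the list 2-fold lower with the hairpin. It was so untreated and with Bic/4AP, where 0.669% and 0.536% of all genes were. It had 108.9 and 84.2 FPKM in vector and 41.9 and 35.2 in shRNA cultures, differences of -1.36 and -1.24. Its 3′ UTR held 1 copy of the word ACAAGTG, while those of Fgf14 and of Nrcam, an adhesion gene with hairpin differences of -0.41 and -0.32, held none.

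The list of channel turnover and processing held 9 genes, all compared, and was mixed. Bounds were apart and lower with Bic/4AP in 3 and higher in 3 in vector cultures, and lower in 3 and higher in 2 in shRNA cultures. Over all genes 37.0% were lower and 21.8% higher in vector, and 37.6% and 17.0% in shRNA cultures. With the hairpin the list's bounds were lower in 1 and higher in 3 untreated, and lower in 3 and higher in 1 with Bic/4AP. Of all genes 22.2% were lower and 33.1% higher untreated, and 21.1% and 28.6% with Bic/4AP. Nedd4l, a ubiquitin ligase for sodium channels, was lower with Bic/4AP under both viruses, at 15.6 FPKM and 10.4 in vector and 15.6 and 10.5 in shRNA cultures. Bace1, the protease that cleaves beta subunits, differed by -0.38 and -0.39. Rest, the repressor known for its site at Scn2a, had 2.78 and 5.03 FPKM in vector cultures untreated and with Bic/4AP. In shRNA cultures it had 3.84 and 5.15, so it was higher with Bic/4AP under both viruses. Its part in the Scn2a1 differences was not tested.

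The genes whose profile over the 4 libraries was nearest to that of Scn3b were Araf, Scrt1, Napb, Spock2 and Cxcl14, among 12649 genes at or above 1 FPKM in every library. The measure was the root mean square distance between log2(FPKM + 1) profiles, each centred on its mean, and it was 0.079, 0.107, 0.126, 0.145 and 0.149. Araf, a RAF family kinase gene, had 94.5 and 82.8 FPKM in vector and 28.5 and 24.0 in shRNA cultures. Napb, a SNARE disassembly factor of neurons, had 124.4 and 99.0 in vector and 46.8 and 37.3 in shRNA cultures. All 5 had both shRNA libraries below both vector libraries, which follows from their choice by nearness to Scn3b in these same libraries. The 3′ UTR word given above was held by Araf, Napb, Spock2 and Cxcl14 but not by Scrt1, and this too is partly built in.

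Among markers of other cells, astrocyte sums were 2790 to 3137 FPKM, and microglia sums 42.3 and 40.4 in vector against 19.0 and 18.4 in shRNA cultures. Of the 7 microglia markers compared in each state, 6 were lower and 1 higher with the hairpin untreated, and 5 lower and 2 higher with Bic/4AP. Bounds were apart and lower in 4 and 5 of them, where 22.2% and 21.1% of all genes were. Oligodendrocyte lineage sums were 119 to 139, endothelial and mural sums 58.0 to 80.5 and fibroblast sums 16.1 to 21.7 FPKM. No marker was at 0 in all libraries. The part of these cell markers in the subunit differences was not tested. The libraries had 12976 to 13141 genes at or above 1 FPKM, and read totals were not used here.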

How the data were processed

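PolyA RNA of 4 cultures, 1 library a group, was sequenced with the Illumina TruSeq kit. The deposited tables hold FPKM with lower and upper bounds for 22878 rows, made by the authors with Cufflinks per the file headers. Cufflinks 2.0.2, TopHat2 2.0.8b, CASAVA 1.8 and build mm9 come from the submitters' processing notes. Read totals were not used here, so depth is unknown; the median distance to the upper bound was 4.18% to 4.44% of the value at higher levels, and precision between cultures cannot be given.

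Rows of a symbol were summed with their bounds, 42 symbols marked as failed and 796 small RNA rows were left out, and differences were taken in log2(FPKM + 1) where at least 1 compared library had an FPKM of at least 1. A call was 2-fold at 1 or more, or bounds that did not overlap. Scripts used Python 3.11.15, pandas 2.3.3 and NumPy 2.4.6 and were checked on simulated data.

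The members and gene lists were chosen with earlier results of these data known. Named genes are the members, Kdm6b, genes of the sodium channel lists, the 5 nearest profiles of Scn3b, and the markers Nefl, Stmn2 and Sst. Alternatives were a pseudocount of 0.1 or 5, no filter or FPKM of at least 5, scaling to a common sum, to the upper quartile or by median ratios, and the highest row per symbol; counts by direction, gaps between responses and the 3′ UTR word were added after the data were seen. The word was sought in 3′ UTRs of at least 50 nt. Spnb2 and Spnb4 in the tables were matched to Sptbn1 and Sptbn4 through RefSeq synonyms. Some other subunit genes are not reported here.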

Additional observations from a re-analysis of the deposited data

How the results depend on the processing

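All 191 member differences under the alternatives kept the sign reported. Of these, 15 moved by at least the distance from the middle to an end of the range that the bounds give. Of 48 gaps between the Bic/4AP responses, 47 kept their sign, the exception being Scn3a at -0.01 in place of 0.02 with a pseudocount of 5. With a pseudocount of 0.1, 1 member (Scn3a) in place of 0 was 2-fold apart with Bic/4AP in vector and 1 in place of 0 in shRNA cultures; with a pseudocount of 5 it stood at -0.56 and -0.57. Over all genes, the counts 2-fold apart with pseudocounts of 0.1, 1 and 5 were 524, 330 and 171 for Bic/4AP in vector cultures, 458, 298 and 161 for Bic/4AP in shRNA cultures, 298, 144 and 43 for the hairpin untreated, and 220, 96 and 30 for the hairpin with Bic/4AP. The higher pseudocount shrinks differences of low genes by construction. With median-ratio scaling 22 in place of 36 genes were 2-fold lower with Bic/4AP in vector cultures, and Scn8a became bounds-apart lower with the hairpin in Bic/4AP cultures; the cause was not tested. No paired analysis was possible because each group has 1 library. With 1 library a group, no value has a replicate check.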

Other observations

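Ank3, the ankyrin that anchors sodium channels at the axon initial segment, was listed at only 0.155 to 0.233 FPKM in the 4 libraries, although Scn2a1 and Scn8a, which it anchors, had 11.2 to 36.3 FPKM. The value is a gene-level estimate in tables whose annotation is not given in the sources used here.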
